A study of Arabidopsis thaliana with 12 samples.

Results

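SDI2 (AT1G04770, sulfur deficiency induced 2) is 1 of 13356 Arabidopsis thaliana genes measured by name on single-colour Affymetrix arrays, through a single probe set. It was picked by its locus identifier, with earlier results of these data known, so its genotype difference is not independent support. Its level in each of 4 groups of seedlings and its genotype difference are described here. Whole seedlings aged 14 days were either wild type of the accession Col-0 or slim1-1 mutants, and were grown on minimal medium. Seedlings of each genotype received either 20 µM arsenite, As(III), or 100 µM cadmium. There were 3 biological replicates per group and 12 arrays in all. Every sample carried a metal, and no group without metal was analysed here. The protocol describes 12 days without treatment and 48 h on arsenite. It gives the same text for the cadmium samples, whose time of exposure is therefore unknown. The mutant is represented by 1 allele, and SLIM1 itself was not analysed here by name, so the genotype labels were not checked against the mutated gene.

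Plants that run short of sulfate switch on a set of genes that raise sulfate uptake and save sulfur. SDI1 and SDI2 belong to this set. They encode related proteins that hold back the synthesis of aliphatic glucosinolates, the sulfur-rich defence compounds of the cabbage family. The SDI1 protein does so by acting on MYB28, a transcription factor of that pathway. SLIM1 (EIL3) is an EIN3-like transcription factor that activates many genes of the sulfur starvation response. Arsenite and cadmium both bind thiols, and plants detoxify them with glutathione and phytochelatins, which draw on assimilated sulfur.

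The 6 arsenite arrays and the 6 cadmium arrays stood on different scales, with array medians from 6.85 to 6.94 and from 5.58 to 5.64 on the log2 scale. A genotype difference within a metal does not contain this step, whereas a difference between metals does. Across genes, arrays of the same group had a correlation of 0.992 or more. The number of arrays limits the precision.

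SDI2 was higher in slim1-1 than in wild type under arsenite. Wild-type seedlings on arsenite had SDI2 levels of 7.77, 8.23 and 8.12 on the log2 scale, with a mean of 8.04 ± 0.24 (SD, n = 3). The slim1-1 seedlings on arsenite had levels of 10.17, 9.90 and 9.74, with a mean of 9.94 ± 0.22 (SD, n = 3). The groups did not overlap. The lowest mutant array lay 1.51 log2 units above the highest wild-type array, while the arrays within a group spanned 0.44 and 0.45. The difference was 1.89 ± 0.16 on the log2 scale (SE, limma, adjusted p = 0.000352), or 3.72-fold with a 95% confidence interval from 2.94-fold to 4.70-fold. Of all 13356 genes tested, 0.457% were called higher in the mutant under arsenite. SDI2 had the lowest p-value of all genes in that contrast and ranked 4 from the top by the size of its rise.

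The same direction was measured under cadmium. Wild-type seedlings on cadmium had SDI2 levels of 7.38, 7.64 and 7.26, with a mean of 7.43 ± 0.19 (SD, n = 3). The slim1-1 seedlings on cadmium had levels of 9.12, 9.26 and 8.78, with a mean of 9.05 ± 0.25 (SD, n = 3). Again every mutant array lay above every wild-type array, with a gap of 1.14 log2 units between the nearest arrays of the genotypes. The difference was 1.63 ± 0.16 on the log2 scale (SE, limma, adjusted p = 5.29e-05), or 3.09-fold with a 95% confidence interval from 2.44-fold to 3.91-fold. Under cadmium 6.62% of the genes tested were called higher in the mutant. SDI2 ranked 18 from the top by the size of its rise and 38 by p-value. Every mutant array above every wild-type array was also seen for 9.95% of genes under arsenite, for 15.6% under cadmium and for 2.37% under both.

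**Figure D1:**
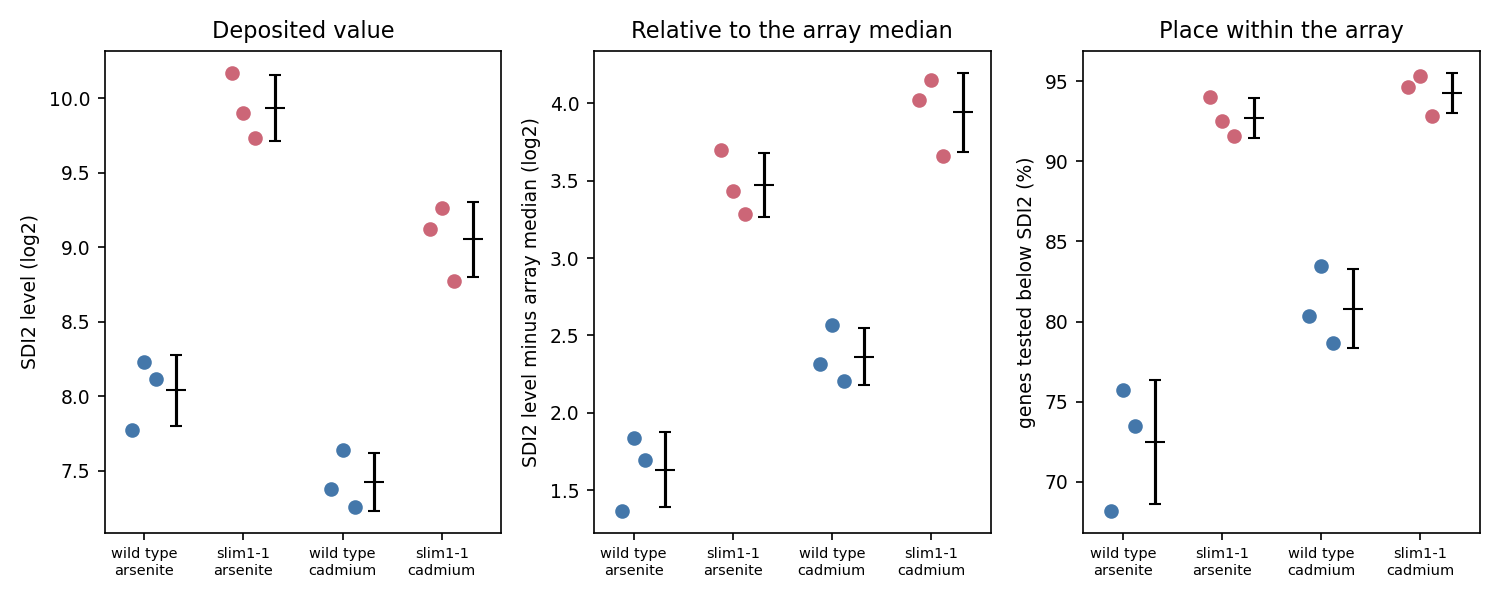
SDI2 on each array in the 4 groups, as the deposited log2 level, as the log2 level minus the median of the genes tested on that array, and as the percentage of genes tested that lay below SDI2 on that array. Points are single arrays (replicates 1 to 3 from left to right) and the black marks give the mean and SD (n = 3); the slim1-1 points lie above the wild-type points of the same metal in each panel.

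Averaged over both metals, SDI2 was 3.39-fold higher in slim1-1 (1.76 ± 0.11 on the log2 scale, SE, limma, adjusted p = 1.19e-05), in a contrast where 8.12% of genes were called. When genotype labels were permuted within each metal, which gives 400 arrangements, the exact two-sided p was 0.005, the smallest that this design allows. Within 1 metal the exact permutation test of 3 against 3 arrays gave p = 0.1, also the smallest it allows. The size of the genotype difference was not shown to differ between the metals. The cadmium difference minus the arsenite difference was -0.27 ± 0.22 on the log2 scale (SE, limma, adjusted p = 0.59), with a 95% confidence interval from -0.75 to 0.22, while 4.3% of genes were called in this interaction. The interval runs from a smaller rise under cadmium, by a factor of 0.596, to a rise that is 1.16-fold larger there.

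The order of the 4 groups depended on the scale. On the deposited log2 scale SDI2 was lowest in wild type on cadmium, followed by wild type on arsenite, slim1-1 on cadmium and slim1-1 on arsenite, and no neighbours in this order overlapped. Relative to the median of the genes tested on each array, SDI2 stood at 1.63 ± 0.24 in wild type on arsenite, 2.36 ± 0.19 in wild type on cadmium, 3.47 ± 0.21 in slim1-1 on arsenite and 3.94 ± 0.26 in slim1-1 on cadmium (log2 units, SD, n = 3 each). On that scale both genotypes were higher on cadmium, and the mutant groups, at 3.29 to 3.70 and 3.66 to 4.15, overlapped. In wild type, SDI2 lay above 68.2% to 75.8% of the genes tested on the arsenite arrays and above 78.6% to 83.5% on the cadmium arrays. In slim1-1 it lay above 91.6% to 94.0% and 92.8% to 95.3%. These percentages serve to set the same probe set against itself on arrays of different scale, and are not a ranking of transcript abundance. On every scale each mutant array was above all 6 wild-type arrays.

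In numbers, SDI2 on cadmium minus SDI2 on arsenite was -0.61 ± 0.16 in wild type (SE, limma, adjusted p = 0.00198) and -0.88 ± 0.16 in slim1-1 (adjusted p = 0.000105) on the deposited log2 scale. In these contrasts 97% and 97.2% of all genes were called, with medians over all genes of -1.14 and -1.16. Relative to those medians, the SDI2 differences were 0.52 and 0.28. Among the 1281 genes whose mean level lay within 0.5 log2 units of SDI2, a comparison chosen after the data had been seen, 82.9% had a lower metal difference than SDI2 in wild type and 67.1% in slim1-1. With all arrays shifted to a common median the differences became 0.73 in wild type (limma, adjusted p = 0.00109) and 0.47 in slim1-1 (adjusted p = 0.0168). With quantile normalisation over the 12 arrays they were 0.60 (adjusted p = 0.00587) and 0.32 (adjusted p = 0.104). Metal, dose and array set cannot be told apart here.

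SDI2 varied more between replicates than most genes. Its residual SD within groups was 0.227 on the log2 scale against a median of 0.113 over genes, and 92.9% of genes had a lower one. The rise in slim1-1 was large beside this spread. Leaving out any 1 of the 12 arrays gave differences between 1.76 and 1.99 under arsenite (adjusted p at most 0.00228) and between 1.52 and 1.77 under cadmium (adjusted p at most 0.000562). Only the 6 arrays of the same metal can move a difference, and the others change its spread and adjusted p alone. With the 6 arsenite arrays fitted alone, the adjusted p was 0.0147.

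**Figure D2:**
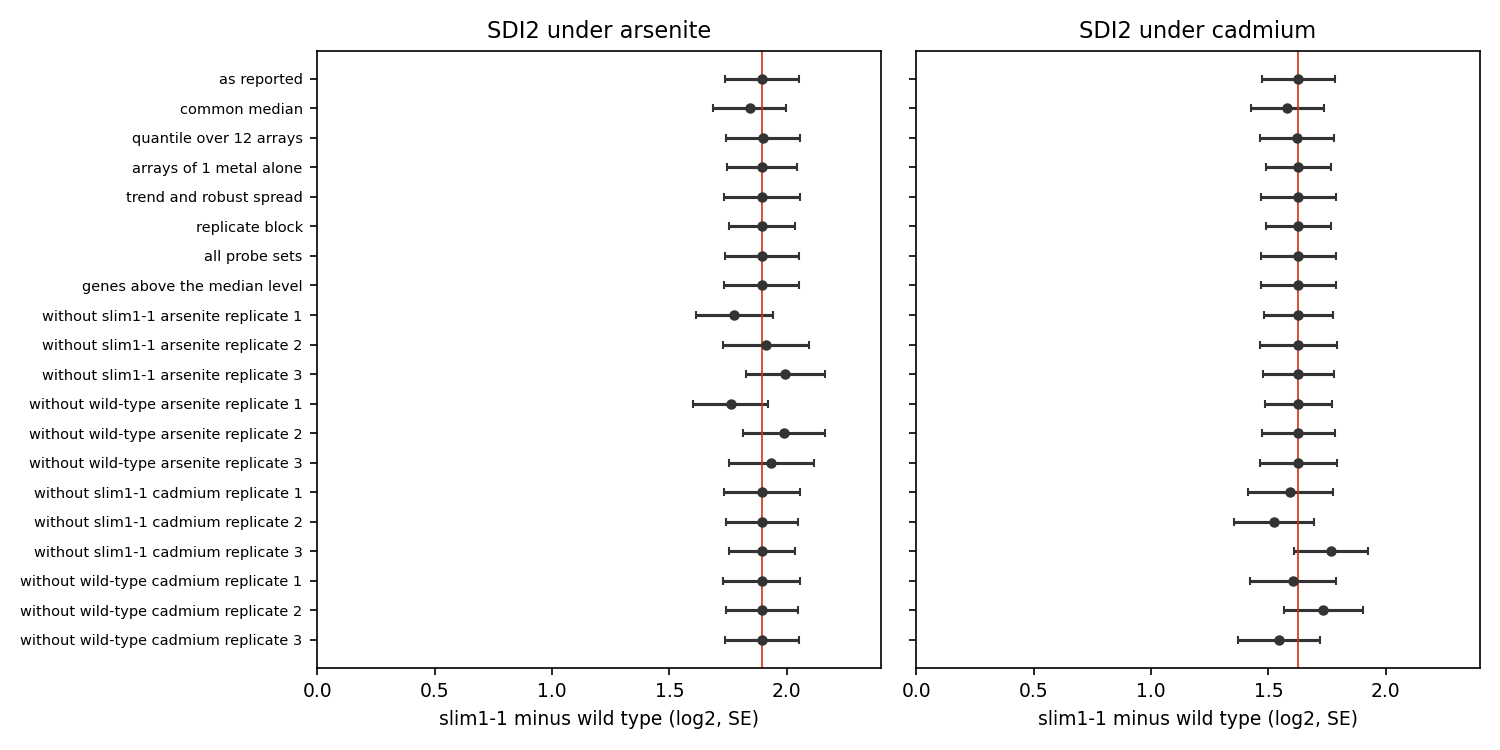
SDI2 in slim1-1 minus wild type on the log2 scale (x axis) under arsenite and under cadmium, as reported and under each alternative setting (y axis). Points are estimates, bars are standard errors and the vertical line marks the reported value. Estimates stay between 1.76 and 1.99 under arsenite and between 1.52 and 1.77 under cadmium. Settings that change only the spread or the genes tested, or that leave out an array of the other metal, cannot move the estimate.

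Few genes rose as far as SDI2 under both metals. In all, 12 of 13356 genes were called higher in slim1-1 under each metal, which is 0.0898% of genes, and the medians of these 12 were 0.72 under arsenite and 0.70 under cadmium on the log2 scale. Of the 12, 3 were at least 2-fold higher under each metal, namely SDI2, AT1G12030 and AT4G20820. AT1G12030 differed by 3.86 ± 0.34 under arsenite and 2.98 ± 0.34 under cadmium (SE, limma, adjusted p = 0.000352 and 0.00016), but its wild-type levels on arsenite, 4.29 to 4.38, lay below the lower quartile of all probe sets on those arrays (4.57 to 4.62), so that fold is not exact. AT4G20820 differed by 1.91 ± 0.18 and 1.93 ± 0.18 (adjusted p = 0.000461 and 4.88e-05). Its wild-type levels were low, at 4.90 to 5.22 on arsenite and 3.69 to 3.99 on cadmium. The lower quartiles of all probe sets on those arrays were 4.57 to 4.62 and 3.31 to 3.32. Its pair of genotype differences was the nearest of all genes to that of SDI2, at a distance of 0.30 log2 units. The next nearest were AT4G12500, at 0.36, AT4G12490, at 0.59, and AT3G44970, at 0.84. AT4G12500 (1.61 ± 0.62 and 1.86 ± 0.62, adjusted p = 0.284 and 0.0728) and AT4G12490 (1.41 ± 0.80 and 1.29 ± 0.80, adjusted p = 0.502 and 0.344) did not pass the test in either metal. With the cadmium arrays fitted alone both passed there (adjusted p = 0.00103 and 0.022), and AT4G12500 also without slim1-1 arsenite replicate 3 (0.013) or wild-type arsenite replicate 1 (0.0429). AT3G44970 passed under cadmium, by 1.55 ± 0.27 (adjusted p = 0.00284), and differed by 1.05 ± 0.27 under arsenite without passing (adjusted p = 0.0878), although it passed there without slim1-1 arsenite replicate 1 (adjusted p = 0.0332) or slim1-1 cadmium replicate 3 (0.0282).

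**Figure D3:**
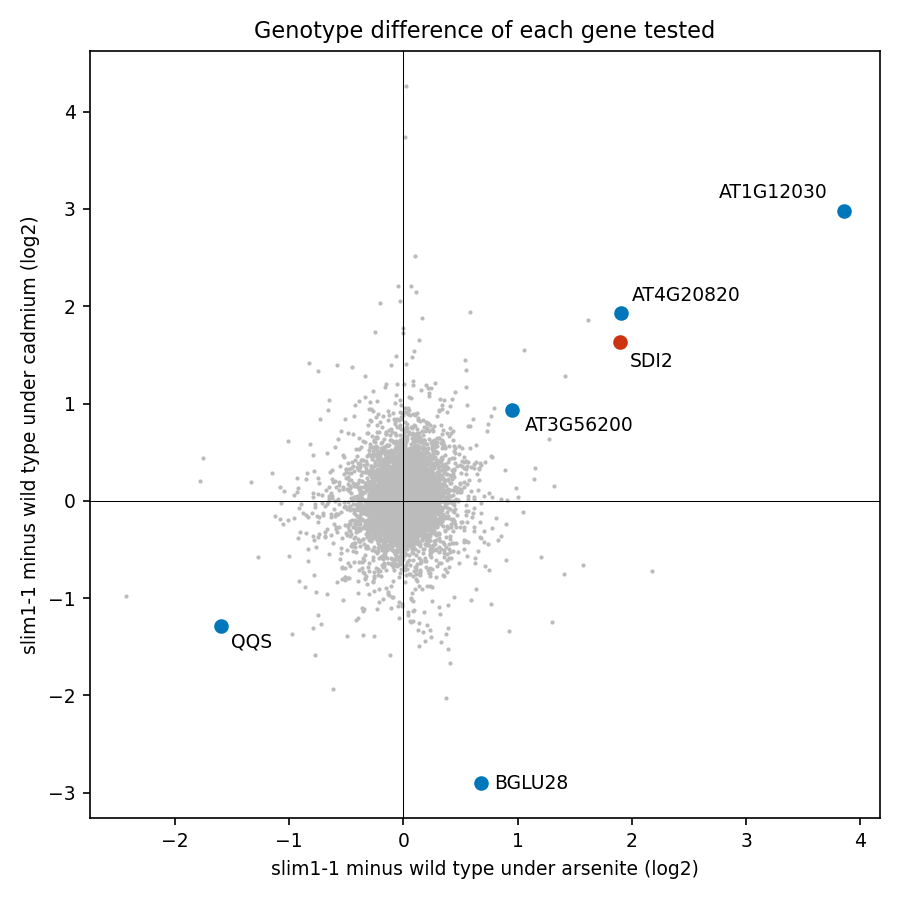
Log2 difference between slim1-1 and wild type under arsenite (x axis) and under cadmium (y axis) for each of the 13356 genes tested (grey points), with SDI2 in red and 5 other genes named in the text in blue. SDI2, at 1.89 and 1.63, lies far to the upper right with AT4G20820 and below AT1G12030.

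Across the 12 arrays, with the mean of the same metal subtracted, the profile of SDI2 was most like that of AT1G12030 (Pearson r = 0.981), AT4G20820 (0.979), AT3G56200 (0.971), TEX1 (0.959), AT3G19000 (0.953), AT1G22410 (0.951), AT1G31910 (0.944) and SFP1 (0.940). The likeness was computed over 9633 genes above the lower quartile of level in each metal, with a median r of 0.05, and 23 genes exceeded 0.9. Such values describe these arrays, which share a normalisation within a metal and split by genotype, so that any gene with a steady genotype difference scores high. Only 3 of the 8 remained among the 8 most alike with Spearman's rho. A high r did not need a large difference.

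AT3G56200 rose in slim1-1 by 0.95 ± 0.16 under arsenite and 0.93 ± 0.16 under cadmium (SE, limma, adjusted p = 0.012 and 0.00239). AT3G19000 rose by 0.79 ± 0.09 and 0.95 ± 0.09 (adjusted p = 0.00249 and 5.29e-05). SFP1, a gene of a sugar transporter-like protein, rose by 0.64 ± 0.09 and 0.58 ± 0.09 (adjusted p = 0.0065 and 0.00174). These genes, like SDI2, were higher in the mutant under both metals. The other 3 had small differences. TEX1, whose product belongs to the THO complex of RNA export, differed by 0.13 ± 0.06 and 0.15 ± 0.06 (adjusted p = 0.366 and 0.129) and AT1G31910 by 0.26 ± 0.06 and 0.18 ± 0.06 (adjusted p = 0.0726 and 0.0757). AT1G31910 passed in both metals when only genes above the median level were tested (adjusted p = 0.0336 and 0.0338), and under arsenite with a trend and robust spread (0.0454). AT1G22410 rose under cadmium by 0.25 ± 0.06 (adjusted p = 0.0228), a call lost with a common median (adjusted p = 0.0512), with the cadmium arrays alone or when slim1-1 replicate 1 or 2, or replicate 1 or 3 of the wild type, was left out on cadmium (0.0504 to 0.0776), and differed by 0.21 ± 0.06 under arsenite (adjusted p = 0.155).

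The most opposite profiles belonged to AT4G28025 (r = -0.964), PSB27 (-0.958), AT3G44630 (-0.954) and AT3G01820 (-0.942). PSB27, which encodes an assembly factor of photosystem II, fell by 0.32 ± 0.06 under arsenite and by 0.29 ± 0.06 under cadmium (SE, limma, adjusted p = 0.0268 and 0.00947). The arsenite call of PSB27 was lost with the arsenite arrays alone (adjusted p = 0.142) or when slim1-1 replicate 1 or 2, or replicate 2 or 3 of the wild type, was left out on arsenite (0.0565 to 0.115). AT3G44630 fell by 0.63 ± 0.08 and by 0.35 ± 0.08 (adjusted p = 0.00249 and 0.00979). QQS, an orphan gene that affects starch content, had r = -0.916 with SDI2, and its differences were -1.60 and -1.29.

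**Figure D4:**
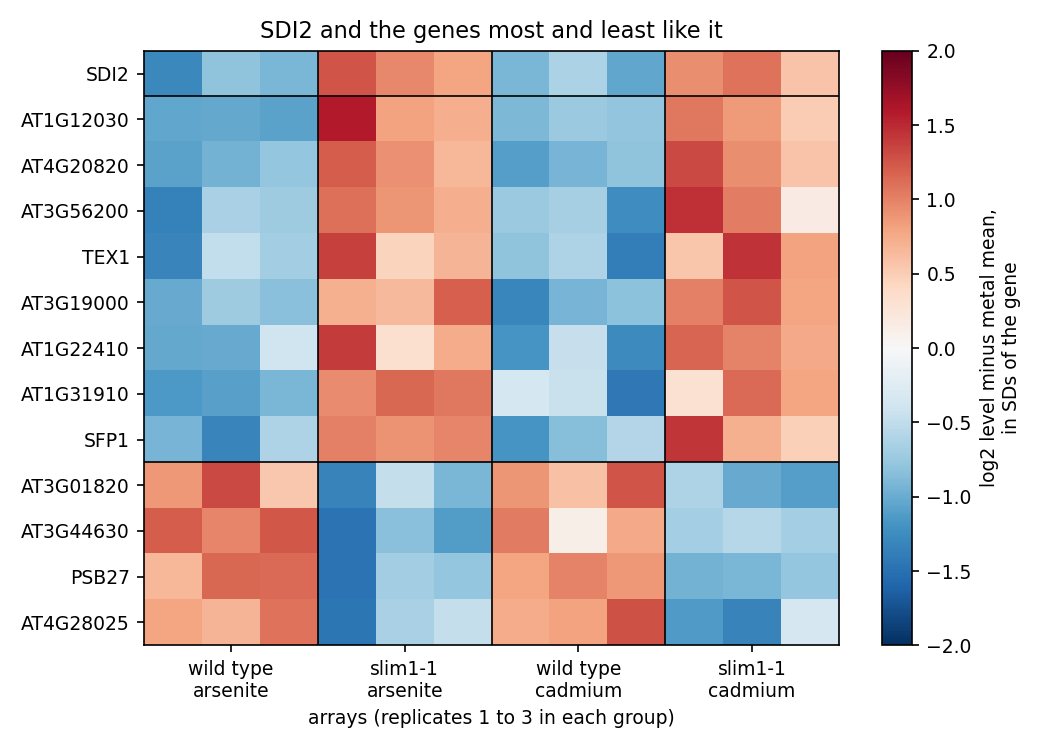
Log2 level minus the mean of the 6 arrays of the same metal, divided by the SD of the gene (colour), for SDI2, the 8 genes most like it and the 4 least like it (rows) on the 12 arrays (columns). SDI2 and the 8 genes are below their metal mean on the wild-type arrays and above it on the slim1-1 arrays, and the 4 genes at the bottom show the reverse.

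SDI2 was set beside other genes of sulfur metabolism in 7 lists with 94 genes, of which 13 were measured here by name. SDI1, the nearest relative of SDI2, and the 12 sulfate transporter genes were not among them. Under arsenite 0 of the 13 rose and 1 fell, against 1.05% of all genes called in either direction, with 3 of the 13 at an unadjusted p under 0.05, against 12.8% of all genes. Under cadmium 1 of the 13 rose and 3 fell, against 12.3% of all genes, with 6 of the 13 at an unadjusted p under 0.05, against 26.1% of all genes. The medians of the 13 were -0.14 under arsenite and -0.11 under cadmium on the log2 scale, beside 0.01 and -0.01 over all genes.

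BGLU28, a beta-glucosidase gene that is induced by sulfur starvation like SDI2, was the only other starvation marker measured. On arsenite it stood at 4.48 to 4.56 in wild type and 4.71 to 5.60 in slim1-1, a difference of 0.68 ± 0.25 that did not pass (limma, adjusted p = 0.268). The wild-type levels lay below the lower quartile of all probe sets on those arrays (4.57 to 4.62), so that difference is not exact. On cadmium it stood at 8.86 to 9.39 in wild type and 5.83 to 6.88 in slim1-1, and fell by 2.90 ± 0.25 (adjusted p = 2.88e-05). Under cadmium the mutant was thus above wild type for SDI2 and below it for BGLU28. Of 2 measured genes from the list of the MS5-like family, to which SDI1 and SDI2 belong, AT3G51280 differed by -0.14 ± 0.11 and 0.25 ± 0.11 (adjusted p = 0.688 and 0.194) and AT5G44330 by 0.02 ± 0.07 and -0.10 ± 0.07 (adjusted p = 0.942 and 0.444). The latter lay at 3.80 to 4.03 on arsenite and 2.91 to 3.08 on cadmium, below the lower quartile of the genes tested. Neither passed under either metal, although AT3G51280 passed under cadmium without slim1-1 cadmium replicate 3 (0.37, adjusted p = 0.0468).

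In sulfate assimilation, 3 of 21 genes were measured. APS3 and APS4 are ATP sulfurylase genes, whose products activate sulfate. APS4 fell by 0.62 ± 0.11 under arsenite (SE, limma, adjusted p = 0.0181), a call lost with the arsenite arrays alone (adjusted p = 0.109) or when slim1-1 replicate 2, or replicate 2 or 3 of the wild type, was left out on arsenite (0.0582 to 0.0638), and differed by 0.19 ± 0.11 under cadmium (adjusted p = 0.293). APS3 fell by 0.73 ± 0.15 under cadmium (adjusted p = 0.00771) and differed by 0.14 ± 0.15 under arsenite (adjusted p = 0.769). SIR, the sulfite reductase gene, fell by 0.39 ± 0.09 under cadmium (adjusted p = 0.0144) and differed by -0.16 ± 0.09 under arsenite (adjusted p = 0.496). The glutathione reductase genes GR1 and GR2, the 2 measured of 8 genes for glutathione and phytochelatins, did not pass under either metal (adjusted p from 0.161 to 0.889). GR1 passed with the cadmium arrays alone (0.29, adjusted p = 0.0359).

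Of the 30 genes listed for aliphatic glucosinolates, the pathway that SDI2 represses, 4 were measured. BCAT4, the aminotransferase of the first step of chain elongation, was lower in the mutant by -0.69 ± 0.22 under arsenite and -0.37 ± 0.22 under cadmium without passing (limma, adjusted p = 0.181 and 0.322). Its levels on arsenite, 9.50 to 9.83 in slim1-1 and 10.32 to 10.52 in wild type, did not overlap, as for the 8.25% of genes with every mutant array below every wild-type array under arsenite. UGT74C1, a glucosyltransferase gene, differed by -0.16 ± 0.12 and -0.11 ± 0.12 (adjusted p = 0.647 and 0.621) and AOP3, a dioxygenase gene of side chain modification, by -0.16 ± 0.10 and -0.02 ± 0.10 (adjusted p = 0.57 and 0.916). AOP3 lay near the lower quartile of all probe sets on the slim1-1 arrays. Its levels there were 4.46 to 4.64 on arsenite beside quartiles of 4.55 to 4.61, and 3.21 to 3.55 on cadmium beside 3.25 to 3.33. GSTU20, a glutathione transferase gene, rose under cadmium by 0.41 ± 0.12 (adjusted p = 0.0417) and differed by -0.14 ± 0.12 under arsenite (adjusted p = 0.694). The GSTU20 call was lost with a common median, with the cadmium arrays alone and when any slim1-1 array on cadmium, replicate 1 or 2 of the wild type on cadmium, or replicate 1 of the wild type on arsenite was left out (adjusted p from 0.0503 to 0.164). UGT74B1, the 1 measured of 11 indole glucosinolate genes, differed by 0.01 ± 0.10 and -0.31 ± 0.10 (adjusted p = 0.982 and 0.0572), and passed under cadmium with a common median (adjusted p = 0.0304), with a trend and robust spread (0.0361), among genes above the median level (0.0355) and without wild-type cadmium replicate 3 (0.0279).

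**Figure D5:**
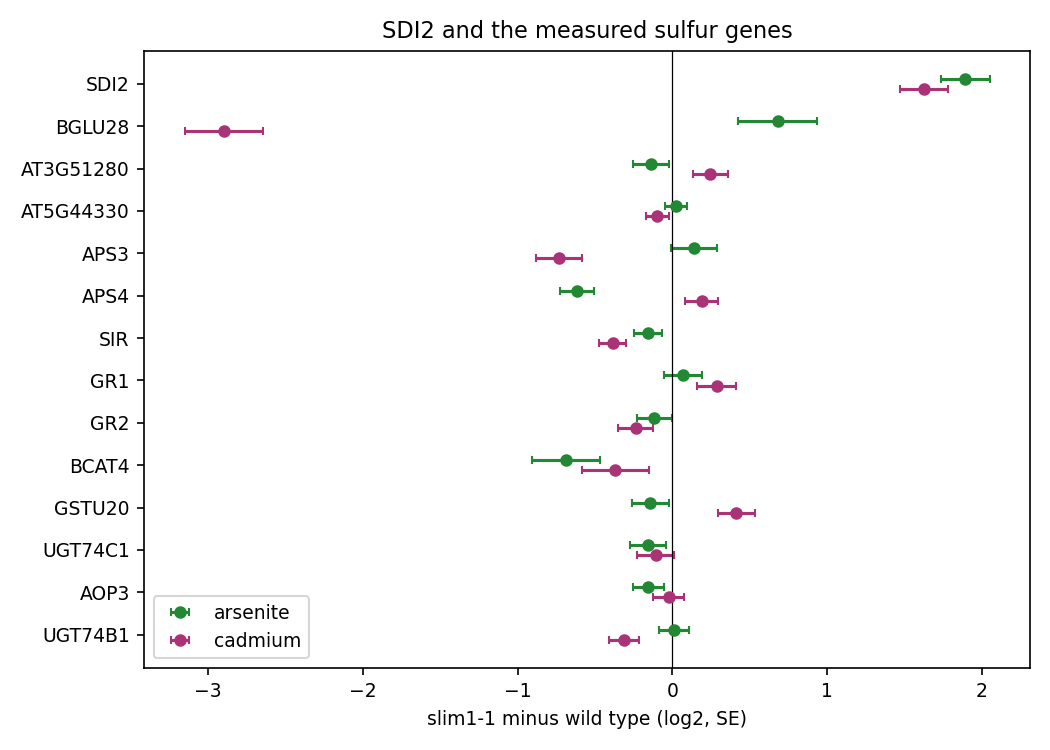
Log2 difference between slim1-1 and wild type (x axis, points with SE bars, n = 3 arrays per genotype) under arsenite (green) and cadmium (purple) for SDI2 and the 13 measured genes of the sulfur lists (y axis). SDI2, at 1.89 and 1.63, lies to the right of every other gene under both metals, and BGLU28 is at 0.68 and -2.90.

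Of the EIN3-like factors related to SLIM1, 3 of 6 were measured. EIN3, which encodes a transcription factor of ethylene signalling, differed by 0.05 ± 0.07 under arsenite and -0.11 ± 0.07 under cadmium (limma, adjusted p = 0.822 and 0.336). EIL4 and EIL5 lay below the lower quartile of the genes tested in both metals and did not pass (adjusted p from 0.152 to 0.964). On chromosome 1, the 3 nearest protein-coding genes on one side of SDI2 (VAMP726, VAMP721 and CTF18) were not analysed here by name. VAMP726 overlaps SDI2 in the TAIR10.1 annotation, and which part of the overlap the probe set reads is not given in the sources used here. On the other side the nearest gene, AT1G04778, was not analysed here by name either. The next, AT1G04780, differed by -0.08 ± 0.10 and -0.01 ± 0.10 (adjusted p = 0.811 and 0.966). AT1G04790 differed by -0.12 ± 0.09 under arsenite (adjusted p = 0.678) and fell by 0.33 ± 0.09 under cadmium (adjusted p = 0.0373). The AT1G04790 call was lost with the cadmium arrays alone and when slim1-1 replicate 2 or 3 or replicate 1 or 3 of the wild type on cadmium, or replicate 1 of the wild type on arsenite, was left out (adjusted p from 0.0519 to 0.151). It was also lost with the replicate number as a block (adjusted p = 0.0506). The 2 measured neighbours, both on that side and neither next to SDI2, thus did not rise with it.

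The tissue was whole seedlings, in which fewer cells that express a gene and less RNA per cell cannot be told apart. Of 8 leaf markers, 1 was measured, the Rubisco activase gene RCA, at 13.59 to 13.76 on arsenite and 13.32 to 13.40 on cadmium. Its genotype differences were -0.11 ± 0.06 and -0.04 ± 0.06 (limma, adjusted p = 0.457 and 0.7). Of 8 root markers, 2 were measured. The root hair expansin genes EXPA7 and EXPA18 differed by 0.02 ± 0.17 and -0.03 ± 0.20 under arsenite (adjusted p = 0.984 and 0.977) and by 0.41 ± 0.17 and 0.50 ± 0.20 under cadmium (adjusted p = 0.139 and 0.138). EXPA7 passed under cadmium without wild-type cadmium replicate 2 (adjusted p = 0.0405). On cadmium EXPA7 lay at 3.36 to 4.01 in wild type and 4.06 to 4.08 in slim1-1. EXPA18 lay there at 3.85 to 4.32 and 4.20 to 4.90. The lower quartile of all probe sets on those arrays was 3.25 to 3.33, so EXPA7 was not far above it. None of 5 seed and pollen markers was measured by name. As signs of RNA quality, the level of the control probe set for the large ribosomal RNA in slim1-1 minus wild type was -0.37 under arsenite and -0.68 under cadmium (exact permutation p = 0.4 and 0.1), and the 3' minus 5' difference of actin differed by -0.12 and 0.25 (exact permutation p = 0.7 and 0.1). Under arsenite the same measure of GAPDH was 0.756 to 0.906 in slim1-1 and 0.927 to 0.989 in wild type, and that of ubiquitin 0.881 to 0.947 and 0.780 to 0.825, so both separated the genotypes, in opposite directions (exact permutation p = 0.1 each, the smallest possible). Under cadmium they differed by -0.07 and 0.00127 (exact permutation p = 0.3 and 1). On cadmium the ribosomal RNA level was 9.45 to 10.12 in slim1-1 and 10.27 to 10.65 in wild type. The actin measure there was 3.71 to 3.97 and 3.53 to 3.61, so both separated the genotypes as well (exact permutation p = 0.1 each, the smallest possible). The array medians were 0.04 higher in the mutant under arsenite and 0.05 under cadmium (exact permutation p = 0.1 each). The part of these measures in the SDI2 difference was not tested. With all arrays at a common median SDI2 differed by 1.84 under arsenite and 1.58 under cadmium.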

How the data were processed

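The 12 arrays held 22810 probe sets each and were labelled with biotin. The authors deposited log2 values made with RMA, per the submitters' processing notes, which give no version; its settings are unknown here. RMA corrects the background, normalises arrays run together and summarises probes. Control probe sets (64) were left out. Of the other 22746, the probe table lists 1 gene for 13513, several for 503 and none for 8730. Only probe sets with 1 gene were tested, and for 146 genes with more than 1 the probe set with the highest mean was kept. Locus tags came from RefSeq TAIR10.1, matched for 13286 of 13356 genes; the symbols SDI2, UGT74C1, EIL4 and EIL5 and the family membership of list genes come from hand-written lists. One model with 4 group means was fitted with limma 3.58.1 in R 4.3.3 (lmFit, eBayes) and checked on simulated data. Two-sided p-values were adjusted by Benjamini-Hochberg over all genes, with a threshold of 0.05. Levels carry no detection call, and values below the lower quartile may be background. SDI2, the gene lists (11 lists, 122 entries, 19 measured) and the rules for naming genes were chosen with earlier results of these data known, so its genotype difference is not independent support. The rule named the 8 genes most and 4 least like SDI2 by Pearson r, the 4 with the nearest pair of differences, all measured list members, neighbours up to 3 genes away and AT1G12030, AT4G20820, BGLU28 and QQS.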

Additional observations from a re-analysis of the deposited data

Results flagged for a closer look

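SDI2 had no interaction of genotype and metal past the threshold, whereas 3 of the 13 measured sulfur genes set beside it had one, against 4.3% of all genes (limma, adjusted over all genes). The genotype difference under cadmium minus that under arsenite was -3.58 ± 0.36 on the log2 scale for BGLU28 (SE, adjusted p = 0.000347), 0.81 ± 0.15 for APS4 (adjusted p = 0.0122) and -0.88 ± 0.21 for APS3 (adjusted p = 0.0363). The BGLU28 value is not exact, since its wild-type levels on arsenite lay below the lower quartile of all probe sets on those arrays (4.57 to 4.62). The APS3 value lost its call when any cadmium array other than wild-type replicate 3 was left out, or, on arsenite, slim1-1 replicate 2 or replicate 2 or 3 of the wild type (adjusted p from 0.055 to 0.0951). Groups of 3 arrays were not searched for single arrays that stand apart.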

How the results depend on the processing

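All 74 recomputed values of the 4 genotype results of SDI2 kept their direction and their side of the threshold. They ranged from 1.76 to 1.99 under arsenite, 1.52 to 1.77 under cadmium, 1.69 to 1.83 for the average and -0.37 to -0.13 for the interaction (adjusted p from 0.459 to 0.824). Settings that change only the spread or the genes tested cannot move an estimate. Leaving out an array of the other metal cannot move a difference within a metal. Such settings bear on the adjusted p alone, so 74 is not a count of checks on the direction. The difference between metals changed sign in wild type and slim1-1 with a common median (0.73 and 0.47), quantile normalisation (0.60 and 0.32) and relative to genes of like level (0.47 and 0.23, added after seeing the data), since these remove the step between array sets. Leaving out 1 array gave -0.75 to -0.52 and -0.99 to -0.74. Quantile normalisation moved the SDI2 level to 7.44 and 9.34 in wild type and slim1-1 on arsenite and to 8.04 and 9.66 on cadmium. The count of genes called, 140 under arsenite and 1646 under cadmium, was 14 with the arsenite arrays alone and 296 and 3227 over all probe sets. Leaving out 1 array gave 50 to 250 under arsenite (250 and 58 without slim1-1 replicate 1 and 2, 50 and 88 without replicate 2 and 3 of the wild type) and 851 to 1794 under cadmium (851 without slim1-1 replicate 2, 958 and 966 without replicate 1 and 3 of the wild type); the cause was not tested. With the replicate number as a block SDI2 differed by 1.89 under arsenite (adjusted p = 0.000298) and 1.63 under cadmium (adjusted p = 9.9e-05). The numbers showed no sign of pairing the arrays. Correlations of deviations between same-numbered arrays of different groups ran from -0.33 to 0.10, with 0 of 12 over 0.1. In 12 comparisons, each of 1 array with the 3 arrays of another group, the same number correlated best in 3. The slim1-1 arsenite arrays entered with 2 other groups, and the wild-type cadmium arrays only as the other group. With 3 arrays per group these values cannot exclude a pairing. By Spearman's rho 3 of the 8 most and 1 of the 4 least alike genes stayed in those groups.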

Other observations

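Genes that shared the genotype pattern of SDI2 differed in how they varied between replicates. The mean of each of the 4 groups was subtracted, so that genotype and metal no longer contribute. Over the 12 arrays SDI2 then correlated with AT3G56200 at r = 0.822, TEX1 at 0.782, AT1G12030 at 0.646, AT1G22410 at 0.636 and AT4G20820 at 0.605. Lower values were those of AT1G31910 at 0.296, AT3G19000 at 0.212 and SFP1 at 0.081. AT3G51280 of the MS5-like list, which had no called genotype difference, stood at 0.742, the highest value among the measured list members. AT5G44330 of the same list stood at -0.008. BCAT4 stood at -0.600, the lowest value among the measured list members. Of the most opposite profiles, AT4G28025 stood at -0.751, AT3G44630 at -0.484, AT3G01820 at -0.203 and PSB27 at -0.106. Apart from AT3G51280, AT5G44330 and BCAT4, these genes were picked by r over the same arrays with only the metal mean subtracted. That r contains the variation between replicates, so their values partly follow from the choice. AT3G51280 and BCAT4 were named here for the highest and the lowest value among the list members. Their values thus follow from that choice as well. How such values spread over all genes is not given here. All of them rest on 8 residual degrees of freedom and describe these arrays only.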
